A study of Mus musculus with 42 samples.

Results

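BALB/c embryonic stem cells (ESCs) kept in culture were compared here with the freshly isolated BALB/c inner cell mass (ICM) from which such lines are started. The arrays were chosen by their labels, as the 3 ESC and the 3 ICM arrays of BALB/c origin in the first of 2 array runs, so 6 of the 42 arrays of the series enter the comparison, across 11450 genes. The ESCs were BALB/c cells at passage 20, grown without serum in N2B27 medium with 1000 U/mL LIF and R2i, that is 1 µM PD0325901, an inhibitor of the kinase MEK, and 10 µM SB431542, an inhibitor of the type I TGF-β receptor. The ICMs came from untreated BALB/c blastocysts of embryonic day 3.5, whose outer trophectoderm layer was lysed with antibody and complement (immunosurgery). Each ICM replicate was a pool of about 20 to 30 ICMs. RNA of both groups went through 2 rounds of amplification before hybridisation to Illumina bead arrays. The labels call the replicates biological but do not say whether the 3 ESC arrays came from separate lines. The p values rest on the spread within all 6 groups of the first run, which include blastocyst outgrowths. The ESC part of that spread may be that of 1 line. An established line is also a dividing population in long culture, whereas an ICM holds early epiblast and primitive endoderm cells. On these ICM arrays trophectoderm markers were detected too, as given with that lineage.

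The inner cell mass of the blastocyst holds the cells that will form the embryo proper, and some of them turn into primitive endoderm when FGF4 from their neighbours activates MEK and ERK. Blocking that route while LIF activates STAT3 keeps cells in the naive state, in which Pou5f1, Sox2 and Nanog hold a self-sustaining network of transcription factors together. The blastocyst also carries RNA and proteins laid down in the oocyte and at cleavage. The comparison therefore asks which parts of the ICM programme the line in R2i has kept, which it has lost and which it has gained.

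Values below are log2 intensities after background correction and quantile normalization, on which the dimmest probes lie near 4, and differences are ESC minus ICM. A probe was detected when under 5% of negative control beads were as bright, and each gene is represented by its brightest probe. On the 3 ESC arrays 31.3% to 31.9% of probes were detected, against 28.9% to 30.3% on the 3 ICM arrays. Over kept probes Pearson's r between ESC and ICM arrays ran from 0.874 to 0.891, within the ESCs from 0.984 to 0.994 and within the ICMs from 0.980 to 0.984. Calls needed both an adjusted p no higher than 0.05 (limma, Benjamini-Hochberg over all genes) and a 2-fold difference in either direction. By this rule 25.7% of all genes were called, 13.9% as higher and 11.7% as lower in the ESCs, and the median change was 0.00427. The shares for single gene groups are to be read against these values. Without background correction the calls were fewer, 742 higher and 651 lower. Folds reached 4 in 489 of the genes called higher and 430 of those called lower, and 16 in 62 and 60. Of the genes called, 2910 had ESC and ICM arrays that did not overlap, and so did 6491 of all 11450 genes tested. In 377 of the rises no ICM array detected the gene, and in 239 of the falls no ESC array did, so that only a minimum fold can be given there, with the dim group set to the lowest detected probe of each array where that was brighter. The number of arrays limits the precision.

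The 47 gene lists behind the groups described below together hold 965 tested genes, of which 332 were called. The plot of calls by list gives the share of members called in each direction. Lists of trophectoderm, primitive endoderm, oocyte and cleavage, and immediate early genes reached furthest to the lower side, and core pluripotency factors and glycolysis enzymes furthest to the higher side.

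**Figure D1:**
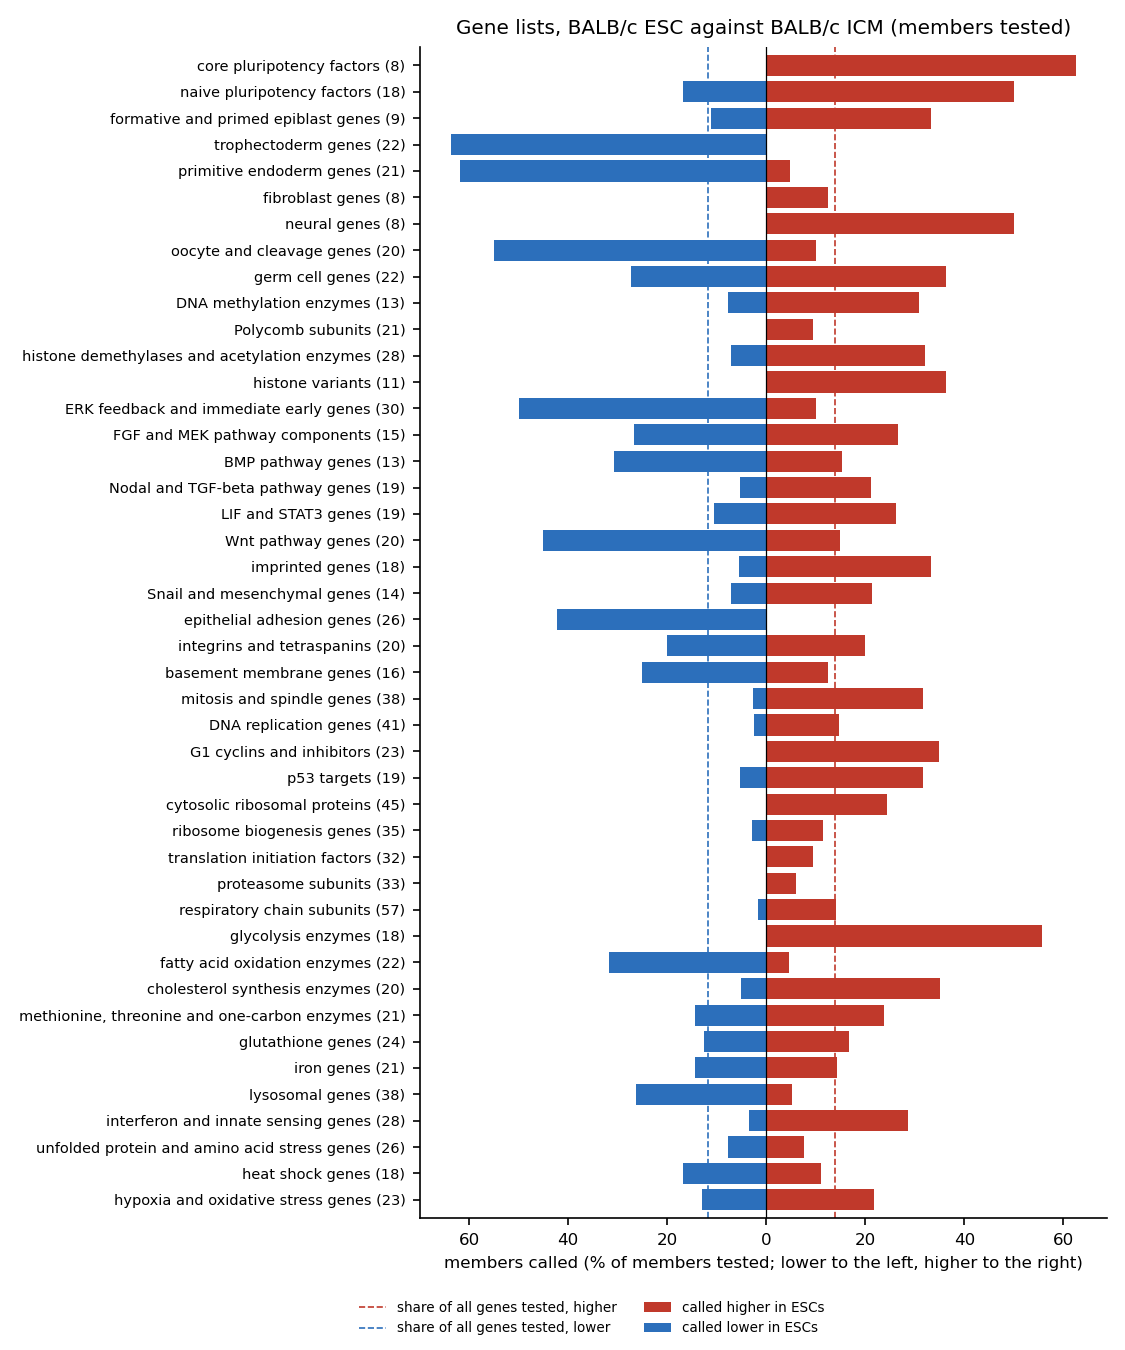
Members called higher in the ESCs (red, to the right) and lower (blue, to the left), as a percentage of the members tested, for the 44 gene lists with at least 8 members tested (number in parentheses). Dashed lines mark the shares among all genes, 13.9% higher and 11.7% lower, which core pluripotency factors (62.5% higher), glycolysis enzymes (55.6% higher), trophectoderm genes (63.6% lower) and primitive endoderm genes (61.9% lower) lie far beyond.

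Beyond Ifitm1 and Cd81, the largest rises fell on genes of varied function. Tm7sf3, a membrane protein, stood at 10.57, 10.97 and 10.74 on the ESC arrays, against 4.22, 4.31 and 4.28 on the ICM arrays, and was at least 59.3-fold higher (undetected in all ICM arrays, adjusted p = 3.79e-16). Olig1, a transcription factor of oligodendrocyte precursors, had levels of 11.58, 11.02 and 11.36 on the ESC arrays, against 4.42, 4.21 and 4.28 on the ICM arrays, so that the ESCs were at least 87.2-fold higher (undetected in all ICM arrays, adjusted p = 2.09e-15). Sulf1 removes sulphate groups from heparan sulphate at the cell surface, and with it tunes FGF and Wnt binding. It measured 10.17, 10.82 and 10.70 on the ESC arrays, against 4.75, 4.33 and 4.69 on the ICM arrays, and was at least 51.6-fold higher (undetected in all ICM arrays, adjusted p = 1.24e-10). Chchd4, which imports and oxidises proteins of the mitochondrial intermembrane space, gave 10.74, 10.92 and 10.86 on the ESC arrays, against 4.57, 5.41 and 5.12 on the ICM arrays and was 56.1-fold higher (log2 5.81, SE 0.23, adjusted p = 1.45e-12, above background in 2 of 3 ICM arrays). For these 4 genes every ESC array was brighter than every ICM array by a wide gap. In blastocyst outgrowths on day 9, Tm7sf3, Olig1 and Chchd4 had mean levels of 4.30, 4.83 and 5.00, and Sulf1 9.46. The rises of the first 3 were thus not seen in the outgrowths, and why was not tested. Rhox9, a homeobox gene of germ cells and placenta, was 64.3-fold higher (above background in 2 of 3 ICM arrays), and Pnma2, derived from a retrotransposon, at least 37.9-fold higher (undetected in all ICM arrays).

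Among the largest falls, Slc15a2, which carries small peptides into cells, stood at 4.80, 4.37 and 4.28 on the ESC arrays, against 11.19, 11.13 and 10.75 on the ICM arrays, and was 93.2-fold lower (log2 -6.54, SE 0.25, adjusted p = 1.33e-12, above background in 1 of 3 ESC arrays). Pramel5, of a family expressed in the preimplantation embryo, had 4.44, 4.28 and 4.50 on the ESC arrays, against 11.66, 11.48 and 11.43 on the ICM arrays, and was at least 108-fold lower (undetected in all ESC arrays, adjusted p = 3.15e-13). Rflnb, a partner of filamin, gave 4.38, 4.22 and 4.23 on the ESC arrays, against 10.45, 10.55 and 10.65 on the ICM arrays and was at least 55.2-fold lower (undetected in all ESC arrays, adjusted p = 1.23e-09). All 3 were among the bright genes of the ICM and lay at or near the dimmest level in the ESCs.

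Core pluripotency factors were detected in both groups and mostly higher in the ESCs. 8 of 10 core pluripotency factors were tested, of which 5 were called higher and 0 lower in the ESCs, with a median log2 change of 1.26. Pou5f1, the POU factor that marks pluripotent cells, stood at 9.50, 9.96 and 9.67 on the ESC arrays, against 7.92, 8.19 and 8.23 on the ICM arrays. It was 3.02-fold higher (log2 1.60, SE 0.34, adjusted p = 0.000835). Utf1, a chromatin protein of undifferentiated cells, had 7.43, 7.71 and 7.44 on the ESC arrays, against 5.74, 5.72 and 5.80 on the ICM arrays, and was 3.42-fold higher (log2 1.78, SE 0.30, adjusted p = 9.83e-05). The groups overlapped in neither gene. Sox2, the partner of Pou5f1, measured 8.20, 8.56 and 8.64 on the ESC arrays, against 6.14, 6.81 and 6.50 on the ICM arrays. Zfp281 and Rif1, which take part in the same network, were 2.29-fold higher and 2.49-fold higher (above background in 2 of 3 ICM arrays). Nanog was bright in both groups at 12.80, 13.05 and 12.93 on the ESC arrays, against 12.04, 12.13 and 12.04 on the ICM arrays, and its difference of 0.86 (SE 0.15) stayed under 2-fold although the arrays did not overlap.

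The naive factors split. 18 of 20 were tested, with 9 called higher and 3 lower and a median of 0.955. Gbx2, a homeobox target of LIF and STAT3, was 3.42-fold higher (log2 1.77, SE 0.28, adjusted p = 4.67e-05), Klf2, a zinc finger factor of the naive state, 3.11-fold higher (log2 1.63, SE 0.16, adjusted p = 1.99e-07), and Nr0b1, an orphan nuclear receptor coded on the X chromosome, at least 2.61-fold higher (undetected in all ICM arrays, adjusted p = 1.35e-07). In the other direction, Nr5a2, a nuclear receptor of the ICM, stood at 8.76, 8.77 and 8.89 on the ESC arrays, against 9.98, 10.40 and 10.34 on the ICM arrays, and was 2.69-fold lower (log2 -1.43, SE 0.21, adjusted p = 1.81e-05). Tbx3, a T-box factor that acts downstream of LIF, was 2.28-fold lower (log2 -1.19, SE 0.23, adjusted p = 0.000353). Zfp42, the marker gene also named Rex1, had 7.95, 7.34 and 7.78 on the ESC arrays, against 8.57, 8.20 and 8.33 on the ICM arrays, and Klf4 had 10.62, 11.11 and 11.10 on the ESC arrays, against 11.94, 11.23 and 11.37 on the ICM arrays. Neither passed the 2-fold limit, and the levels of both were somewhat lower on every ESC array than on the ICM arrays.

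Dppa genes, named for their link to pluripotent development, did not follow the core factors: 3 of 5 were called lower and 0 higher. Dppa1 was at least 7.35-fold lower (undetected in all ESC arrays, adjusted p = 6.54e-11), with levels of 4.60, 4.24 and 4.27 on the ESC arrays, against 7.84, 7.53 and 7.55 on the ICM arrays. Dppa3 (stella), a maternal factor that protects methylation in the zygote, was 2.31-fold lower (log2 -1.20, SE 0.28, adjusted p = 0.00152), but without ESC replicate 1 its change was -0.97 and it was not called. Of the genes of the formative and primed epiblast, 3 of 9 tested were called higher and 1 lower. Otx2, which opens that later programme, had 8.85, 8.84 and 8.87 on the ESC arrays, against 6.78, 6.99 and 7.44 on the ICM arrays, and was 3.45-fold higher (log2 1.79, SE 0.23, adjusted p = 3.44e-06). Fgf5, the usual marker of the primed state, gave 6.80, 6.73 and 6.61 on the ESC arrays, against 4.95, 4.48 and 6.23 on the ICM arrays. Its difference of 1.49 (SE 0.67, adjusted p = 0.0738) did not pass the test, which takes its spread from all 17 arrays of the fit. With only the ESC and ICM arrays in the fit Fgf5 passed, and 4 members of the list were called higher. Without ICM replicate 3 its difference was 2.016 and passed.

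**Figure D2:**
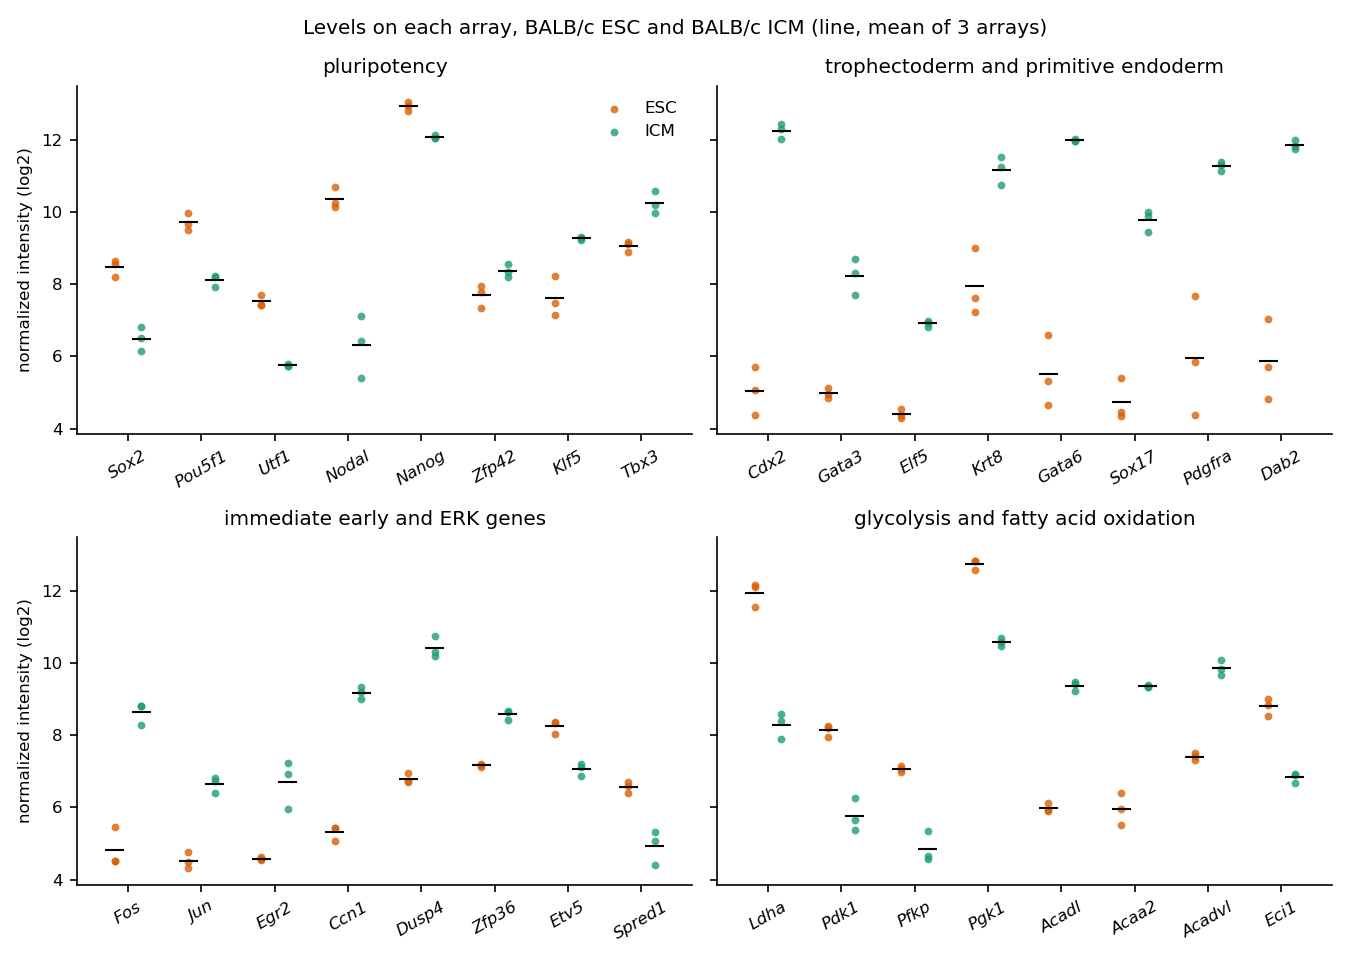
Normalized log2 intensity on each array of 32 genes in 4 groups, with ESC arrays (orange) to the left of ICM arrays (green) and a line at each mean of 3 arrays. Trophectoderm, primitive endoderm and immediate early genes such as Cdx2, Gata6, Fos and Jun lie lower on every ESC array than on any ICM array, while Ldha, Pdk1, Pfkp and Pgk1 lie higher in the ESCs.

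Genes of the extraembryonic lineages stood lower in the ESCs. For trophectoderm, the outer layer that forms placenta, 22 of 24 trophectoderm genes were tested, of which 0 were called higher and 14 lower in the ESCs, with a median log2 change of -2.17. Cdx2, the factor that sets up this layer, stood at 5.70, 4.38 and 5.07 on the ESC arrays, against 12.02, 12.45 and 12.29 on the ICM arrays, and was 147-fold lower (log2 -7.20, SE 0.24, adjusted p = 1.84e-13, above background in 2 of 3 ESC arrays). Gata3, which acts beside Cdx2, had 4.97, 4.85 and 5.12 on the ESC arrays, against 8.70, 8.31 and 7.71 on the ICM arrays and was 9.58-fold lower (log2 -3.26, SE 0.21, adjusted p = 7.15e-10). Elf5, which keeps trophoblast cells dividing, was at least 4.44-fold lower (undetected in all ESC arrays, adjusted p = 1.14e-09), and Tead4, which turns Cdx2 on, was 7.34-fold lower (log2 -2.88, SE 0.20, adjusted p = 1.96e-09). The keratins Krt8 and Krt18, which fill simple epithelia, were 9.35-fold lower and 14.1-fold lower. In each of these genes the highest ESC array lay below the lowest ICM array. Trophectoderm genes were well detected on the ICM arrays. Of 11 trophectoderm markers tested, 10 were detected on all 3 ICM arrays and 5 on all 3 ESC arrays, and 8 were called lower and 0 higher. Their summed linear level ran from 12670 to 14520 on the ESC arrays, against 21730 to 23840 on the ICM arrays. Such a sum is carried by its brightest members, and Cdx2, Gata3 and Elf5 were dim in the ESCs. In bulk RNA, fewer cells of a type and less RNA per cell cannot be told apart.

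Primitive endoderm, the layer of the ICM that forms yolk sac, was lower too: 21 of 25 primitive endoderm genes were tested, of which 1 was called higher and 13 lower in the ESCs, with a median log2 change of -2.1. Gata6, the factor that starts this lineage, had 6.59, 4.64 and 5.32 on the ESC arrays, against 11.96, 11.97 and 12.02 on the ICM arrays and was 88.5-fold lower (log2 -6.47, SE 0.32, adjusted p = 2.48e-11, above background in 2 of 3 ESC arrays). Sox17, which follows it, gave 5.40, 4.36 and 4.45 on the ESC arrays, against 9.90, 10.00 and 9.45 on the ICM arrays, and was 33.0-fold lower (log2 -5.05, SE 0.27, adjusted p = 9.03e-11, above background in 1 of 3 ESC arrays). Pdgfra, a growth factor receptor on these cells, stood at 7.66, 4.37 and 5.85 on the ESC arrays, against 11.30, 11.37 and 11.15 on the ICM arrays and was 39.7-fold lower (log2 -5.31, SE 0.51, adjusted p = 1.2e-07, above background in 2 of 3 ESC arrays). Dab2 and Lrp2, an adaptor and a receptor of endocytosis, were 63.9-fold lower and 52.5-fold lower. Apoe, a lipid carrier made by visceral endoderm and other cells, was the member called higher, at 9.45, 9.02 and 9.15 on the ESC arrays, against 6.26, 6.27 and 6.29 on the ICM arrays. The summed linear level of 9 primitive endoderm markers ran from 548.9 to 2901 on the ESC arrays, against 14030 to 16770 on the ICM arrays.

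The ESC arrays themselves spread in these genes. In 47 genes ESC replicate 1 was at least 4-fold above ESC replicate 2, in 0 genes was it the other way round, and ESC replicate 3 lay between the pair in all 47. They include Pdgfra, Dab2, Lama1 and Col4a2 of primitive endoderm and Krt18 and Tspan8 of trophectoderm. Their median level was 7.66 on ESC replicate 1 and 4.67 on ESC replicate 2, with 7.65 in the ICMs. In blastocyst outgrowths on day 9, the last stage before lines, the median level of the same genes was 10.2. 22 of the 47 were called lower and 9 higher in the ESCs against the ICMs. Without ESC replicate 1 the whole comparison gave 1632 genes higher and 1402 lower.

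The summed linear level of 3 fibroblast markers ran from 68.88 to 77.03 on the ESC arrays, against 69.26 to 132.8 on the ICM arrays, and that of 3 neural markers from 150.6 to 192.4, against 79.47 to 108.4. In the wider lists, 1 of 8 fibroblast genes tested was called higher and 0 lower. It was the filament protein Vim, 6.90-fold higher (log2 2.79, SE 0.30, adjusted p = 5.59e-07, above background in 2 of 3 ICM arrays). Of 8 neural genes tested, 4 were called higher and 0 lower, and some were bright in the ESCs. Olig1, described above, was the largest rise of this list. Sox11, a factor of neural progenitors, stood at 8.98, 8.87 and 8.85 on the ESC arrays, against 4.25, 4.51 and 4.29 on the ICM arrays, and was at least 16.3-fold higher (undetected in all ICM arrays, adjusted p = 2.42e-08). The microtubule protein Map2 was 3.48-fold higher (above background in 2 of 3 ICM arrays). From the primitive streak and mesoderm, 4 of 7 tested were called lower and 0 higher. Among them Eomes, a T-box factor of trophoblast and streak, was 13.0-fold lower (log2 -3.70, SE 0.19, adjusted p = 4.17e-11, above background in 1 of 3 ESC arrays), and Gsc, a homeobox gene of the organizer, 8.37-fold lower (log2 -3.07, SE 0.18, adjusted p = 2.82e-10).

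Genes of ERK feedback and of the immediate early response were often lower in the ESCs. The ESCs were grown with PD0325901, which blocks the MEK and ERK route, and the ICMs had been through antibody and complement. The part of either in these changes was not tested. 30 of 41 ERK feedback and immediate early genes were tested, of which 3 were called higher and 15 lower in the ESCs, with a median log2 change of -0.998. Fos, a subunit of the AP-1 factor, stood at 5.45, 4.51 and 4.52 on the ESC arrays, against 8.82, 8.81 and 8.30 on the ICM arrays, and was 14.1-fold lower (log2 -3.81, SE 0.34, adjusted p = 4.85e-08, above background in 1 of 3 ESC arrays). Its partner Jun had 4.50, 4.77 and 4.32 on the ESC arrays, against 6.75, 6.41 and 6.81 on the ICM arrays and was at least 3.72-fold lower (undetected in all ESC arrays, adjusted p = 9.49e-09). Egr2, a relative of Egr1, gave 4.62, 4.57 and 4.55 on the ESC arrays, against 6.92, 7.22 and 5.97 on the ICM arrays and was at least 3.85-fold lower (undetected in all ESC arrays, adjusted p = 4.46e-07). No ESC array reached the lowest ICM array in any of the 3. Ccn1 and Ccn2, secreted matrix proteins that stretch and serum induce, were 14.6-fold lower and 10.1-fold lower. Klf6, Atf3 and Phlda1, which many stresses induce, were 3.87-fold lower, at least 3.20-fold lower (undetected in all ESC arrays) and at least 4.23-fold lower (undetected in all ESC arrays). Zfp36, which marks short-lived messages for decay, measured 7.17, 7.21 and 7.12 on the ESC arrays, against 8.42, 8.66 and 8.68 on the ICM arrays and was 2.68-fold lower (log2 -1.42, SE 0.12, adjusted p = 3.46e-08). The phosphatases that switch off MAP kinases fell in part: Dusp14 was 14.9-fold lower (log2 -3.90, SE 0.27, adjusted p = 1.65e-09), Dusp4 12.3-fold lower (log2 -3.62, SE 0.20, adjusted p = 1.58e-10), Dusp1 3.23-fold lower (log2 -1.69, SE 0.20, adjusted p = 1.46e-06) and Dusp6, the usual readout of ERK activity, 2.33-fold lower (log2 -1.22, SE 0.30, adjusted p = 0.00284). Against this trend Spred1, an inhibitor of RAS, was 3.11-fold higher (log2 1.64, SE 0.25, adjusted p = 3.4e-05, above background in 2 of 3 ICM arrays), and the ETS factors Etv1 and Etv5 were 2.38-fold higher and 2.28-fold higher. Without background correction 9 members of the list were called lower and 0 higher, and with an offset of 50 there was 1 rise. Spry4 was not detected in either group.

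Many immediate early promoters carry a CArG box, the site that serum response factor binds. The motif, searched on both strands in 300 bases around each start (250 before and 50 after), occurs in 1.81% of 27025 genes with a promoter in RefSeq and in 1.72% of the tested genes. Of the 11 immediate early genes called lower with a promoter sequence, 3 hold it (Dusp5, Egr2 and Zfp36), against 1 of 10 not called and 0 of 3 called higher. The promoters of 2 of these, picked because they hold the motif, are printed from RefSeq (GRCm38.p6), from 250 bases before the start to its last base before it, with the CArG box in capitals. That of Egr2 lies at chr10:67537316-67537565 on the plus strand, with the box starting 72 bases before this start, 1 of 5 listed for the gene. That of Zfp36 lies at chr7:28379229-28379478 on the minus strand, with the box starting 58 bases before the start.
Egr2: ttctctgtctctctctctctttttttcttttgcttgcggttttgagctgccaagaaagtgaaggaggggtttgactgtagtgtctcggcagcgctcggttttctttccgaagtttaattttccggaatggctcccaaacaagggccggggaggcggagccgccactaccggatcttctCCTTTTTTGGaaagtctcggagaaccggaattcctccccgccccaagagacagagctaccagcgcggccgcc
Zfp36: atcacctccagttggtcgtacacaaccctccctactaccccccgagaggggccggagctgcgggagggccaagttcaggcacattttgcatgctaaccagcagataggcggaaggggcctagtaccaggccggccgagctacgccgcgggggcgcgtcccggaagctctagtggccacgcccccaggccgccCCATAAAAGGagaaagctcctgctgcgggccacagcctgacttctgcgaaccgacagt
A match describes the letters of the promoter and not its use in these cells.

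Components of the signalling routes changed less evenly than the immediate early genes did. Among ligands, receptors and kinases of FGF and MEK, 4 rises and 4 falls in 15 genes tested (median log2 change -0.23) were counted. Fgf10, a ligand for the FGFR2 receptor, had 5.43, 4.70 and 5.18 on the ESC arrays, against 10.62, 10.43 and 10.67 on the ICM arrays and was 44.4-fold lower (log2 -5.47, SE 0.26, adjusted p = 1.66e-11, above background in 2 of 3 ESC arrays). Fgfr2 itself, which trophectoderm and primitive endoderm use, was 4.97-fold lower (log2 -2.31, SE 0.15, adjusted p = 1.26e-09). The adaptor Shc1 and the RAS protein Nras were 3.21-fold higher and 2.15-fold higher. Araf, a RAF kinase, was 2.35-fold higher by its brightest probe, while another of its 4 probes was called lower.

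LIF acts through Il6st and Lifr on JAK kinases and STAT3, and 5 rises and 2 falls in 19 genes tested (median log2 change 0.0918) were counted. The receptor subunit Il6st was 3.64-fold higher (log2 1.86, SE 0.20, adjusted p = 4.41e-07, above background in 2 of 3 ICM arrays), and Socs3, the inhibitor that STAT3 induces, 3.52-fold higher (log2 1.81, SE 0.33, adjusted p = 0.000172). Stat3 itself had 6.81, 5.66 and 6.09 on the ESC arrays, against 7.85, 7.96 and 7.23 on the ICM arrays, and was 2.82-fold lower (log2 -1.49, SE 0.31, adjusted p = 0.000677). Cish, another inhibitor of cytokine receptors, was 6.15-fold lower (log2 -2.62, SE 0.18, adjusted p = 2.45e-09). Jak1 was 3.21-fold higher by its brightest probe, and its other probe was called lower.

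Ligands and targets of Wnt stood mostly lower: 20 of 28 Wnt pathway genes were tested, of which 3 were called higher and 9 lower in the ESCs, with a median log2 change of -0.411. Wnt7b gave 5.24, 4.48 and 4.69 on the ESC arrays, against 9.44, 9.56 and 9.72 on the ICM arrays, and was 27.3-fold lower (log2 -4.77, SE 0.25, adjusted p = 7.81e-11, above background in 1 of 3 ESC arrays). Wnt3a was at least 18.5-fold lower (undetected in all ESC arrays, adjusted p = 1.15e-11). Axin2, a target that feeds back on β-catenin, had 6.77, 6.64 and 6.68 on the ESC arrays, against 10.04, 10.01 and 10.12 on the ICM arrays and was 10.3-fold lower (log2 -3.37, SE 0.16, adjusted p = 2.57e-11). The coreceptors Lrp5 and Lrp6 were 2.86-fold lower (above background in 1 of 3 ESC arrays) and 2.71-fold lower (above background in 2 of 3 ESC arrays). Receptors went the other way, with Fzd7 5.54-fold higher and Fzd10 at least 7.51-fold higher (undetected in all ICM arrays). Tcf7l1, a repressor that β-catenin removes from pluripotency genes, stood at 8.52, 9.11 and 8.97 on the ESC arrays, against 6.13, 5.10 and 6.06 on the ICM arrays, and was 8.59-fold higher (log2 3.10, SE 0.29, adjusted p = 1.07e-07). The falls in the Wnt list were 3 without background correction and 4 with an offset of 50.

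Nodal, a TGF-β family ligand whose receptor SB431542 blocks, was one of the larger rises among signals. It stood at 10.71, 10.13 and 10.25 on the ESC arrays, against 7.13, 5.41 and 6.42 on the ICM arrays, and was 16.5-fold higher (log2 4.04, SE 0.30, adjusted p = 5.33e-09). Gdf3, a related ligand, was 2.93-fold higher (log2 1.55, SE 0.18, adjusted p = 1.11e-06), and Skil and Tgif1, repressors of SMAD activity, were 2.79-fold higher and 2.28-fold higher. Lefty2, a target and antagonist of Nodal, was at least 2.84-fold lower (undetected in all ESC arrays, adjusted p = 1.62e-07). Over this route 4 rises and 1 fall in 19 genes tested (median log2 change 0.146) were counted, and with array weights or the 75th percentile as scaling the median fell below 0. The falls were 2 without ESC replicate 2 or without ICM replicate 3. In the BMP route 2 rises and 4 falls in 13 genes tested (median log2 change 0.162) were counted. The ligand Bmp4 was 5.45-fold lower (log2 -2.45, SE 0.16, adjusted p = 1.21e-09), its targets Id2 and Id3 were 7.56-fold lower (above background in 1 of 3 ESC arrays) and 2.84-fold lower, while the target Id4 was at least 2.82-fold higher (undetected in all ICM arrays) and the effector Smad1 3.38-fold higher.

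Glycolysis was the metabolic group with the highest share of rises. 18 of 25 glycolysis enzymes were tested, of which 10 were called higher and 0 lower in the ESCs, with a median log2 change of 1.65. Ldha, which makes lactate from pyruvate, stood at 11.55, 12.16 and 12.11 on the ESC arrays, against 8.60, 7.88 and 8.38 on the ICM arrays, and was 12.5-fold higher (log2 3.65, SE 0.22, adjusted p = 2.86e-10). Pdk1, the kinase that keeps pyruvate out of mitochondria, had 8.20, 7.96 and 8.25 on the ESC arrays, against 6.26, 5.66 and 5.36 on the ICM arrays and was 5.20-fold higher (log2 2.38, SE 0.27, adjusted p = 1.17e-06). Pkm, which makes pyruvate, gave 11.75, 11.91 and 11.85 on the ESC arrays, against 9.18, 9.30 and 9.59 on the ICM arrays, and was 5.57-fold higher (log2 2.48, SE 0.20, adjusted p = 1.34e-08). No ICM array reached the lowest ESC array in any of these. The 3 forms of phosphofructokinase, the committed step, were 4.62-fold higher (above background in 1 of 3 ICM arrays), 3.72-fold higher and 2.95-fold higher for Pfkp, Pfkl and Pfkm. Aldoc, an aldolase, was at least 6.08-fold higher (undetected in all ICM arrays, adjusted p = 7.98e-11). Further down the pathway Tpi1, Gapdh and the X-linked Pgk1 were 3.56-fold higher, 3.37-fold higher and 4.48-fold higher. The glucose carriers Slc2a1 and Slc2a3 changed by 0.98 and 0.22 and were not called.

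Hypoxia response elements, which the factor HIF1 binds, have ACGTG as their core, and several glycolysis promoters are known for them. The core, on either strand, occurs in 21.8% of all genes with a promoter and in 28.7% of the tested genes. It occurs in 6 of the 10 glycolysis genes called higher and in 4 of 7 not called. The promoters of Ldha and Pgk1 are printed from RefSeq (GRCm38.p6), with the core in capitals on whichever strand it lies, CACGTG reading as a core on both. That of Ldha lies at chr7:46845554-46845803 on the plus strand, 1 of 2 starts listed, with 5 matches that start 145, 144, 48, 47 and 34 bases before the start. That of Pgk1 lies at chrX:106186850-106187099 on the plus strand, with matches 150 and 131 bases before the start.
Ldha: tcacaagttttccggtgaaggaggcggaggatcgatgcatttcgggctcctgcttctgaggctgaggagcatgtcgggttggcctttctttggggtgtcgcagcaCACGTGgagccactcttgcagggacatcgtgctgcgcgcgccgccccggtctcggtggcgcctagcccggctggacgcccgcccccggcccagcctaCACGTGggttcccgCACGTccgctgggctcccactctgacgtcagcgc
Pgk1: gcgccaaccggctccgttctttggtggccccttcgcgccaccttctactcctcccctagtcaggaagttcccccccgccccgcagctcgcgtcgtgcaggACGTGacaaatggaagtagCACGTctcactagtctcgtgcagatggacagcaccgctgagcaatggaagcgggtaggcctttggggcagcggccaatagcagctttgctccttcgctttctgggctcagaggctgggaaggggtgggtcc
Hif1a was at least 1.63-fold higher (undetected in all ICM arrays, adjusted p = 0.00286) and was not called without ESC replicate 2 (change 0.823) or without ICM replicate 2 (change 0.999). Among all hypoxia and oxidative stress genes 5 rises and 3 falls in 23 genes tested (median log2 change 0.142) were counted, and they did not move one way: the hypoxia-induced genes Ankrd37 and Egln3 were 8.69-fold higher (above background in 1 of 3 ICM arrays) and 3.59-fold higher, while Car9 and the prolyl hydroxylase subunits P4ha1 and P4ha2 were at least 4.31-fold lower (undetected in all ESC arrays), 3.49-fold lower (above background in 1 of 3 ESC arrays) and 14.0-fold lower.

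Enzymes that burn fatty acids in mitochondria stood mostly lower. 22 of 27 fatty acid oxidation enzymes were tested, of which 1 was called higher and 7 lower in the ESCs, with a median log2 change of -0.717. Acadl, the long-chain dehydrogenase, had 5.92, 5.92 and 6.13 on the ESC arrays, against 9.48, 9.42 and 9.22 on the ICM arrays and was 10.5-fold lower (log2 -3.39, SE 0.15, adjusted p = 7.01e-12). Acaa2, the thiolase of the last step, gave 6.41, 5.51 and 5.96 on the ESC arrays, against 9.33, 9.40 and 9.35 on the ICM arrays, and was 10.6-fold lower (log2 -3.40, SE 0.26, adjusted p = 9.01e-09). Acadvl, for very long chains, stood at 7.42, 7.31 and 7.50 on the ESC arrays, against 9.68, 9.85 and 10.09 on the ICM arrays and was 5.50-fold lower (log2 -2.46, SE 0.36, adjusted p = 1.63e-05). The 3 genes were well detected in both groups, and their arrays did not overlap. The carnitine transferase Cpt2 was 2.09-fold lower and the activating enzyme Acsl4 3.86-fold lower. Eci1, an isomerase for unsaturated chains, was the 1 rise, at 3.90-fold higher (log2 1.96, SE 0.14, adjusted p = 2.51e-09). Without background correction the falls were 4.

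In the list of cholesterol synthesis the members called were mostly higher. 20 of its 27 genes were tested, of which 7 were called higher and 1 lower in the ESCs, with a median log2 change of 0.57. Msmo1, a sterol oxidase, had 10.27, 10.62 and 10.44 on the ESC arrays, against 7.04, 7.08 and 6.94 on the ICM arrays and was 10.7-fold higher (log2 3.42, SE 0.14, adjusted p = 3.9e-12). Cyp51, which removes a methyl group from lanosterol, was at least 5.01-fold higher (undetected in all ICM arrays, adjusted p = 2.37e-06), Mvd, of the mevalonate steps, 4.72-fold higher (log2 2.24, SE 0.20, adjusted p = 6.38e-08, above background in 2 of 3 ICM arrays), and Sqle, which forms squalene epoxide, 3.70-fold higher (log2 1.89, SE 0.16, adjusted p = 3.21e-08). Nsdhl, the regulator Insig1 and the fatty acid desaturase Scd2 were 3.25-fold higher (above background in 2 of 3 ICM arrays), 2.56-fold higher and at least 2.03-fold higher (undetected in all ICM arrays). Ebp, a sterol isomerase, went the other way at 3.14-fold lower. Without background correction the rises were 3.

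**Figure D3:**
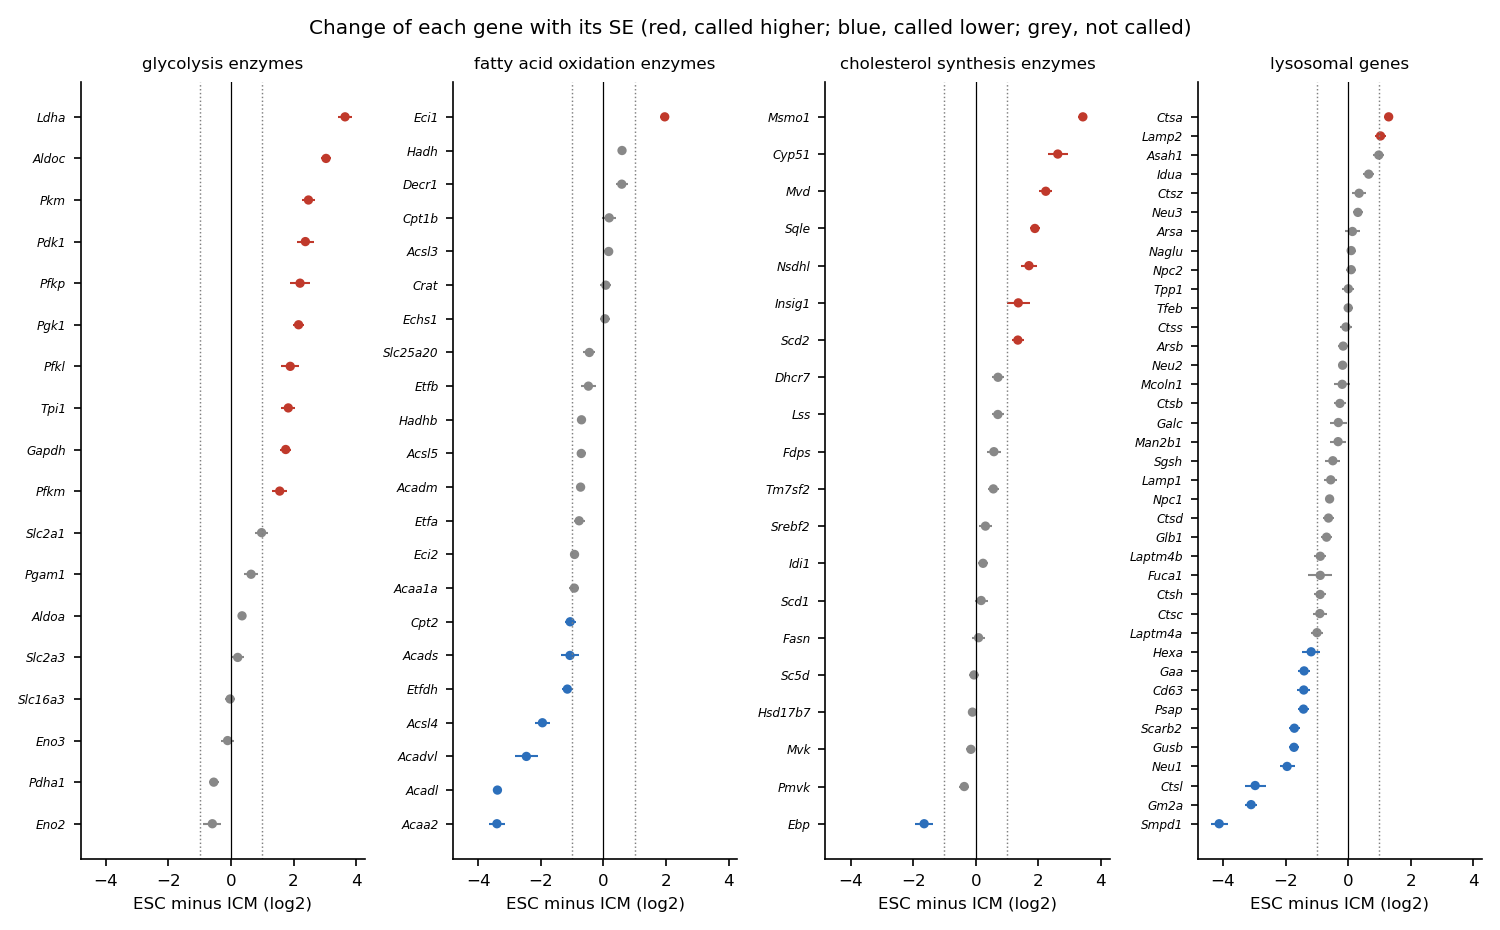
Change of every tested member of 4 metabolic lists, as ESC minus ICM on the log2 scale with its SE, in red where called higher, blue where called lower and grey where not called; dotted lines mark 2-fold. Members of the glycolysis and cholesterol lists lie mostly to the right of 0, and fatty acid oxidation and lysosomal genes mostly to the left.

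Lysosomal hydrolases and membrane proteins stood lower in 10 of 38 tested and higher in 2 (median log2 change -0.525). Smpd1, which splits sphingomyelin, had 8.12, 6.71 and 7.17 on the ESC arrays, against 11.27, 11.39 and 11.71 on the ICM arrays and was 17.4-fold lower (log2 -4.12, SE 0.27, adjusted p = 8.97e-10). Gm2a, an activator of ganglioside breakdown, was 8.60-fold lower (log2 -3.10, SE 0.19, adjusted p = 5.06e-10), and the protease Ctsl 7.86-fold lower (log2 -2.97, SE 0.34, adjusted p = 9.62e-07). Psap and Neu1, which serve the breakdown of lipids and sugar chains, were 2.69-fold lower and 3.87-fold lower. In the methionine and one-carbon group 5 rises and 3 falls in 21 genes tested (median log2 change 0.328) were counted. Bhmt2, the close relative of the betaine enzyme Bhmt, had 4.27, 4.33 and 4.38 on the ESC arrays, against 8.90, 9.42 and 9.22 on the ICM arrays and was at least 21.4-fold lower (undetected in all ESC arrays, adjusted p = 3.23e-13). Mat2b, a subunit of the enzyme that makes S-adenosylmethionine, gave 9.20, 9.57 and 9.43 on the ESC arrays, against 7.03, 6.99 and 6.72 on the ICM arrays and was 5.61-fold higher (log2 2.49, SE 0.29, adjusted p = 1.16e-06). Serine hydroxymethyltransferase Shmt2 was 2.39-fold higher. Genes of glutathione gave 4 rises and 3 falls in 24 genes tested (median log2 change -0.0274), shares near those of all genes. The peroxidase Gpx4 was 3.06-fold higher and the transferase Gsta1 6.76-fold lower (above background in 1 of 3 ESC arrays). Without ESC replicate 1 the falls among the glutathione genes were 5. For iron, 3 rises and 3 falls in 21 genes tested (median log2 change -0.0789) were counted, also near the shares of all genes. The transferrin receptor Tfrc was 2.16-fold higher. Without ESC replicate 2 there was 1 rise among the iron genes and 1 among the lysosomal genes, and without ICM replicate 3 also 1 among the lysosomal genes.

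RNA of the oocyte and cleavage stages stood lower in most members. 20 of 41 oocyte and cleavage genes were tested, of which 2 were called higher and 11 lower in the ESCs, with a median log2 change of -1.16. Trim43b, a cleavage-stage gene, had 4.49, 4.58 and 4.46 on the ESC arrays, against 10.77, 11.01 and 10.62 on the ICM arrays and was at least 65.8-fold lower (undetected in all ESC arrays, adjusted p = 2.71e-15), and its copy Trim43a was at least 23.3-fold lower (undetected in all ESC arrays, adjusted p = 3.95e-15). Khdc3, a maternal protein of the subcortical complex, was 21.9-fold lower (log2 -4.45, SE 0.17, adjusted p = 1.63e-12). Pramel6 and Pramel7, which help to demethylate DNA in naive cells, were at least 4.80-fold lower (undetected in all ESC arrays) and 16.3-fold lower. Zp3, a protein of the egg coat, was the larger of 2 rises, 3.43-fold higher (log2 1.78, SE 0.17, adjusted p = 1.42e-07, above background in 1 of 3 ICM arrays). Trim43 and Pramel genes have near-identical copies, so a probe may read more than 1 of them. The rises among these genes were 1 without ESC replicate 1 or without ICM replicate 3.

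Germ line genes went both ways, at 8 rises and 6 falls in 22 genes tested (median log2 change 0.0949). Kit, the receptor for stem cell factor, gave 8.90, 8.98 and 8.83 on the ESC arrays, against 5.30, 4.89 and 5.73 on the ICM arrays and was 12.1-fold higher (log2 3.60, SE 0.27, adjusted p = 4.44e-09). Tdrd12, a protein of the piRNA pathway, was 10.0-fold higher (log2 3.33, SE 0.18, adjusted p = 9.83e-11). Rhox6 and Rhox5, X-linked homeobox genes whose promoters methylation can silence, were at least 23.5-fold higher (undetected in all ICM arrays) and 7.53-fold higher. Piwil2 and Asz1, also of the piRNA pathway, were 5.16-fold lower and 6.20-fold lower (above background in 1 of 3 ESC arrays).

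Genes that write, read or remove DNA methylation were called in part. Of 13 tested, 4 were called higher and 1 lower. The fall was Tet1, which oxidises methylated cytosine, with 9.37, 9.92 and 9.63 on the ESC arrays, against 10.92, 10.61 and 10.73 on the ICM arrays. It was 2.16-fold lower (log2 -1.11, SE 0.36, adjusted p = 0.0172), and was not called without ESC replicate 1 (change -0.974) or without ICM replicate 1 (-1.025). Dnmt1, which copies methylation at replication, had 10.67, 10.34 and 10.49 on the ESC arrays, against 9.16, 9.41 and 9.31 on the ICM arrays and was 2.31-fold higher (log2 1.21, SE 0.14, adjusted p = 1.94e-06). Uhrf2, a relative of the factor that guides Dnmt1, was 2.09-fold higher. Dnmt3b and Dnmt3l, the de novo enzyme and its cofactor, changed by 0.18 and 0.61 and were not called. Gadd45a, a stress gene linked to DNA repair and demethylation, stood at 9.11, 10.48 and 10.02 on the ESC arrays, against 4.93, 5.75 and 5.86 on the ICM arrays and was 20.5-fold higher (log2 4.36, SE 0.51, adjusted p = 1.29e-06). Polycomb subunits gave 2 rises and 0 falls in 21 genes tested (median log2 change 0.105), shares below those of all genes. Cbx7 was 4.88-fold higher and Pcgf6 4.41-fold higher, and Ezh2, the methyltransferase, changed by 0.01. Enzymes that demethylate or acetylate histones gave 9 rises and 2 falls in 28 genes tested (median log2 change 0.514). Hdac6, a deacetylase of tubulin coded on the X chromosome, was at least 5.79-fold higher (undetected in all ICM arrays, adjusted p = 2.44e-11), and Kdm4c and Kdm3a, demethylases of histone H3 lysine 9, were 3.80-fold higher and 2.48-fold higher. Kdm4a was at least 2.94-fold lower (undetected in all ESC arrays). Histone variants gave 4 rises and 0 falls in 11 genes tested (median log2 change -0.0687), among them H2az2 and H2az1 at 3.25-fold higher and 2.41-fold higher.

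Imprinted genes are read from 1 parental copy only, and their level depends on methylation marks of egg and sperm. They gave 6 rises and 1 fall in 18 genes tested (median log2 change 0.203). Mest had 9.65, 10.41 and 10.22 on the ESC arrays, against 6.47, 6.39 and 6.90 on the ICM arrays and was 11.3-fold higher (adjusted p = 1.5e-08). Ndn gave 10.60, 10.09 and 10.03 on the ESC arrays, against 7.10, 7.53 and 7.38 on the ICM arrays and was 7.49-fold higher (log2 2.91, SE 0.18, adjusted p = 3.37e-10). Peg3 and Impact, like these expressed from the paternal copy, were 7.10-fold higher (above background in 2 of 3 ICM arrays) and 5.38-fold higher. Igf2r, expressed from the maternal copy, stood at 7.43, 7.15 and 7.20 on the ESC arrays, against 10.28, 9.87 and 10.20 on the ICM arrays, and was 7.26-fold lower (log2 -2.86, SE 0.17, adjusted p = 2.09e-10). The parental copy read was not measured.

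Genes of the X chromosome were called higher more often than those of any autosome. Of 402 X-linked genes tested, 122 (30.3%) were called higher and 29 (7.21%) lower, with a median change of 0.302. On the 19 autosomes the share called higher ran from 10.2% to 19.4% and the median from -0.0819 to 0.0722. The shift was present on each ESC array: against the ICM mean, the median X-linked gene stood 0.345, 0.301 and 0.289 higher, and the median autosomal gene 0.00913, -0.0162 and -0.0161. X-linked genes were called higher in 16.2% to 39.8% of those tested over all other settings of the processing, above the share of all genes in each (6.48% to 18.4%). 17 of the 100 largest rises were X-linked.

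**Figure D4:**
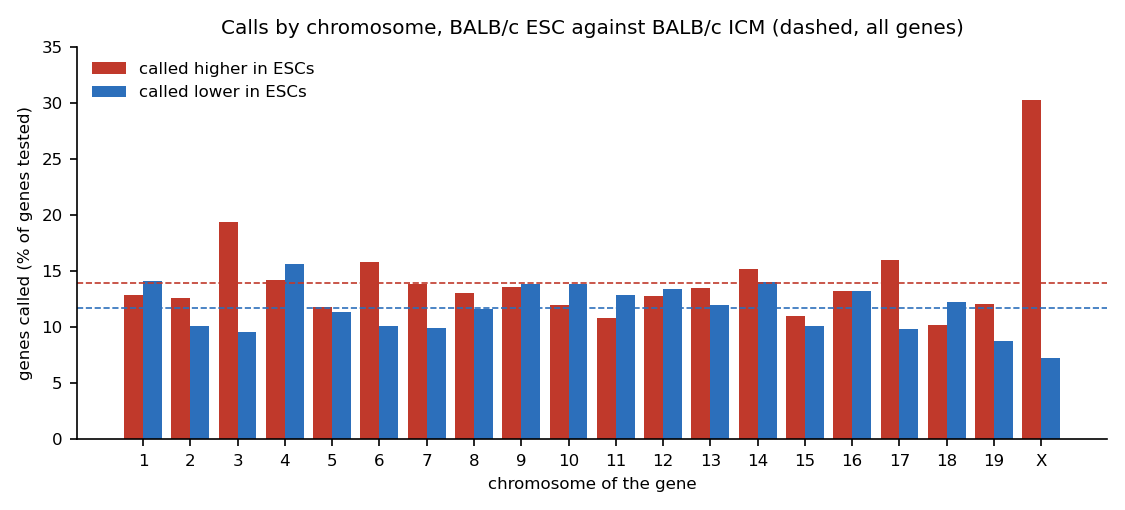
Share of the tested genes of each chromosome called higher (red) and lower (blue) in the ESCs, in percent, with dashed lines at the shares over all genes. The X chromosome, at 30.3% higher and 7.21% lower, stands apart from the 19 autosomes, which reach at most 19.4% higher.

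Among these were many genes of 1 small family group. Of 14 tested genes named Bex, Tceal or Armcx, 10 were called higher and 0 lower, and 13 of the 14 are listed on the X chromosome. Armcx2, an armadillo repeat protein of mitochondria, had 9.82, 9.54 and 9.53 on the ESC arrays, against 4.59, 4.43 and 5.01 on the ICM arrays and was 30.9-fold higher (log2 4.95, SE 0.20, adjusted p = 1.8e-12, above background in 1 of 3 ICM arrays). Tceal8 gave 8.84, 8.78 and 8.98 on the ESC arrays, against 4.32, 4.35 and 4.59 on the ICM arrays and was at least 15.9-fold higher (undetected in all ICM arrays, adjusted p = 3.23e-12). Klhl13, an adaptor of a ubiquitin ligase that acts in mitosis, stood at 9.72, 9.77 and 9.60 on the ESC arrays, against 4.59, 4.33 and 4.66 on the ICM arrays and was at least 28.4-fold higher (undetected in all ICM arrays, adjusted p = 1.07e-12). Eras, a RAS protein of ESCs that drives PI3 kinase, had 8.96, 9.45 and 9.52 on the ESC arrays, against 4.82, 4.35 and 4.66 on the ICM arrays and was at least 21.7-fold higher (undetected in all ICM arrays, adjusted p = 5.33e-12). Slc7a3, a carrier of arginine and lysine, was among the brightest at 13.13, 13.31 and 13.29 on the ESC arrays, against 9.05, 8.64 and 9.05 on the ICM arrays, and was 20.1-fold higher (log2 4.33, SE 0.16, adjusted p = 5.98e-13).

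Xist, the RNA that coats the inactive X chromosome of female cells, had 4.62, 4.44 and 4.53 on the ESC arrays, against 8.32, 7.34 and 7.82 on the ICM arrays and was at least 8.37-fold lower (undetected in all ESC arrays, adjusted p = 3.85e-08). Of the Y-linked genes, Eif2s3y, a translation factor subunit, stood at 8.17, 5.20 and 6.34 on the ESC arrays, against 9.85, 10.20 and 10.35 on the ICM arrays, and was 11.8-fold lower (log2 -3.56, SE 0.45, adjusted p = 3.29e-06). Usp9y was at least 3.13-fold lower (undetected in all ESC arrays, adjusted p = 5.47e-06). Eif2s3y is 1 of the 47 genes that were higher on ESC replicate 1 than on ESC replicate 2. Eif2s3x, its X-linked partner, was 2.07-fold higher, but was not called without ESC replicate 2 (change 0.835), ESC replicate 3 (0.997) or ICM replicate 3 (0.937). The labels give the sex neither of the line nor of the embryos, and sex and culture cannot be told apart here. The X-linked genes were singled out after the calls by chromosome had been seen.

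Epithelial genes stood lower, whereas E-cadherin did not pass the 2-fold limit. 26 of 32 epithelial adhesion genes were tested, of which 0 were called higher and 11 lower in the ESCs, with a median log2 change of -0.524. Epcam, an adhesion protein of epithelia and ESCs, had 5.90, 6.13 and 5.96 on the ESC arrays, against 7.78, 7.99 and 7.77 on the ICM arrays and was 3.61-fold lower (log2 -1.85, SE 0.14, adjusted p = 8.43e-09). Tight junction proteins were lower: Ocln was at least 4.77-fold lower (undetected in all ESC arrays, adjusted p = 3.73e-08), and Cldn7, Cldn4 and Cldn6 were 4.79-fold lower, 2.77-fold lower and 2.38-fold lower. Esrp2, a splicing factor of epithelia, was 10.1-fold lower. Cdh1, E-cadherin, stood at 11.08, 11.05 and 11.25 on the ESC arrays, against 11.50, 11.53 and 11.64 on the ICM arrays and was not called. From the mesenchymal side 3 rises and 1 fall in 14 genes tested (median log2 change 0.148) were counted. Zeb1 and Tcf4, factors that repress Cdh1 in other cells, were 3.42-fold higher and 4.52-fold higher, and Snai1, another such factor, had 5.29, 4.80 and 4.80 on the ESC arrays, against 6.08, 6.10 and 6.27 on the ICM arrays and was 2.28-fold lower (log2 -1.19, SE 0.22, adjusted p = 0.000254). Krt8, Krt18 and the claudins belong to trophectoderm as well, whose markers moved with this list as given above, and their part in it was not tested.

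At the cell surface, integrins and tetraspanins gave 4 rises and 4 falls in 20 genes tested (median log2 change -0.0167). Itga9, an integrin that binds tenascin, had 8.05, 8.32 and 8.41 on the ESC arrays, against 4.26, 4.35 and 4.92 on the ICM arrays and was 13.4-fold higher (log2 3.75, SE 0.28, adjusted p = 6.59e-09, above background in 1 of 3 ICM arrays). Tspan6, an X-linked tetraspanin, was at least 10.4-fold higher (undetected in all ICM arrays), and Tspan8, of trophectoderm, 39.7-fold lower (above background in 2 of 3 ESC arrays). In the basement membrane 2 rises and 4 falls in 16 genes tested (median log2 change -0.116) were counted. Col18a1, the source of endostatin, stood at 10.88, 10.33 and 10.52 on the ESC arrays, against 4.99, 4.57 and 5.66 on the ICM arrays, and was 45.2-fold higher (log2 5.50, SE 0.28, adjusted p = 4.89e-11, above background in 2 of 3 ICM arrays). The laminin chains Lamb1 and Lama1 were 7.48-fold lower (above background in 2 of 3 ESC arrays) and 3.96-fold lower and the collagen chain Col4a2 4.28-fold lower, products of primitive endoderm.

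Cell cycle genes that were called were mostly higher, and most members were not called. Among mitosis genes 12 rises and 1 fall in 38 genes tested (median log2 change 0.468) were counted, and among G1 cyclins and inhibitors 8 rises and 0 falls in 23 genes tested (median log2 change 0.517). The kinase Wee1, which holds back mitosis, had 8.91, 9.93 and 9.52 on the ESC arrays, against 7.34, 7.48 and 7.03 on the ICM arrays and was 4.48-fold higher (log2 2.16, SE 0.26, adjusted p = 1.84e-06). Aurkb, of the spindle checkpoint, was 3.27-fold higher. Ccnd1, the cyclin D1 that drives G1, had the largest rise of its list at 6.13-fold higher (log2 2.62, SE 0.35, adjusted p = 7.2e-06). Cdkn2b, an inhibitor of CDK4, gave 8.39, 8.23 and 8.28 on the ESC arrays, against 5.33, 5.95 and 5.88 on the ICM arrays and was 5.99-fold higher (log2 2.58, SE 0.18, adjusted p = 2.74e-09), and Rb1, the retinoblastoma protein, was 4.92-fold higher (log2 2.30, SE 0.18, adjusted p = 1.16e-08). DNA replication genes gave 6 rises and 1 fall in 41 genes tested (median log2 change 0.00419), a share near that of all genes, with the polymerase subunit Pola2 5.74-fold higher and the helicase subunit Mcm3 2.74-fold higher. Of p53 targets 6 rises and 1 fall in 19 genes tested (median log2 change 0.544) were counted. Bbc3, which triggers apoptosis, was 4.21-fold higher (log2 2.08, SE 0.30, adjusted p = 1.57e-05), and Zmat3 and Trp53inp1 were 4.21-fold higher and 3.06-fold higher.

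Ribosomal protein genes were called higher in 11 of 45 and lower in 0 (median 0.541), led by Rps6 at 4.55-fold higher and Rps20, which was at least 3.11-fold higher (undetected in all ICM arrays). Their many processed copies can share probes. Ribosome biogenesis gave 4 rises and 1 fall in 35 genes tested (median log2 change 0.297), translation initiation 3 rises and 0 falls in 32 genes tested (median log2 change 0.0258) and proteasome subunits 2 rises and 0 falls in 33 genes tested (median log2 change -0.246), shares at or below that of all genes. The falls in ribosome biogenesis were 0 without ESC replicate 2 or ICM replicate 3 and 2 without ESC replicate 1. Eif4e, which binds the cap of messages, stood out at 9.22, 9.86 and 9.65 on the ESC arrays, against 5.81, 5.60 and 5.27 on the ICM arrays, and was 16.2-fold higher (log2 4.02, SE 0.18, adjusted p = 1.09e-11). Psmd8, of the proteasome cap, had 11.80, 11.86 and 11.82 on the ESC arrays, against 8.68, 8.63 and 8.59 on the ICM arrays and was 9.12-fold higher (log2 3.19, SE 0.20, adjusted p = 5.94e-10). Nuclear genes of the respiratory chain gave 8 rises and 1 fall in 57 genes tested (median log2 change 0.221), a share of rises near that of all genes. Among the rises, the subunits Ndufa7 and Cox7b were 4.27-fold higher and 3.92-fold higher. Ndufb10, the 1 called lower, has another probe called higher.

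Genes of the interferon response were higher in 8 of 28 tested and lower in 1 (median 0.212). Ifitm2 and Ifitm3, neighbours of Ifitm1 that keep viruses from fusing, had 9.53, 9.50 and 9.46 on the ESC arrays, against 5.01, 4.43 and 4.47 on the ICM arrays for Ifitm2, and 11.41, 11.30 and 11.53 on the ESC arrays, against 7.01, 6.56 and 7.43 on the ICM arrays for Ifitm3. Ifitm2 was 29.0-fold higher (log2 4.86, SE 0.24, adjusted p = 2.65e-11, above background in 1 of 3 ICM arrays), and Ifitm3 21.3-fold higher (log2 4.41, SE 0.22, adjusted p = 2.48e-11). The RNA sensor Ddx58 was at least 2.61-fold higher (undetected in all ICM arrays), the nucleotide hydrolase Samhd1 2.45-fold higher and the tether Bst2 2.94-fold higher. Heat shock genes gave 2 rises and 3 falls in 18 genes tested (median log2 change -0.433): Bag3, a cochaperone, was 7.88-fold lower (log2 -2.98, SE 0.21, adjusted p = 2.79e-09), and the small heat shock protein Hspb1 had 10.87, 9.94 and 10.56 on the ESC arrays, against 8.05, 7.69 and 8.07 on the ICM arrays and was 5.75-fold higher (log2 2.52, SE 0.24, adjusted p = 1.32e-07). Without ESC replicate 2 or ICM replicate 3 the list had 1 rise. Genes of the unfolded protein response gave 2 rises and 2 falls in 26 genes tested (median log2 change 0.0883), shares below those of all genes. The disulphide isomerases Pdia4, 4.33-fold higher, and Pdia6, 2.88-fold lower, moved apart.

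The nearest comparison in the series is that of hybrid ESCs at passage 15 in R2i, 2 arrays, against hybrid ICMs, 2 arrays, in the second run. For that run and other experiments together, the study lists B6 × C3H hybrids and crosses of such hybrids with other mice. Which of them gave these arrays is not stated there. P15 cells were cultured in the same medium, and the ICMs isolated as above. The pair shares no sample with the BALB/c arrays, was normalized apart and used another array type, and no difference between the strains was tested. Its ICM arrays were dim, with 24.2% and 18.0% of probes detected. At an adjusted p of at most 0.01 and 2-fold, 48.1% of 10013 genes were called there, 24.2% as higher and 23.9% as lower in P15. Of 9208 genes measured in both runs, 776 were called higher in both, which is 55.8% of the BALB/c rises measured and 32.7% of the hybrid rises. Lower in both were 421 genes, 37.6% of the BALB/c falls and 18.7% of the hybrid falls. 96 genes were higher in BALB/c ESCs and lower in P15, and 135 the other way round.

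Some groups gave like counts in the 2 strains. All 7 members of the cholesterol list called higher and the 1 called lower in BALB/c had the same call in the hybrid. Of primitive endoderm genes, 11 were lower in both, and of fatty acid oxidation enzymes 5. Of the 9 largest BALB/c rises measured in the hybrid 8 were called higher there, and of 7 largest falls 6 were called lower. The rise not called was Chchd4, with means of 10.11 in the hybrid ICMs and 10.94 in P15. Other groups did not match. X-linked genes were called higher in 33.5% of those tested in the hybrid, against 25.5% of autosomal genes. They did not lie above every autosome there, since chromosome 3 had 35.8% called higher. Trophectoderm genes gave 2 higher and 6 lower of 22 in the hybrid, ribosomal proteins 1 higher and 13 lower of 40, and respiratory chain subunits 0 higher and 20 lower of 55. Of the glycolysis enzymes, 4 were called higher in both, Ldha among them, and Gapdh was not called in the hybrid. Immediate early genes gave 2 higher and 6 lower of 23: Fos, Jun and Ccn1 were not called in the hybrid, whereas Egr1 and Dusp4 were lower in both.

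**Figure D5:**
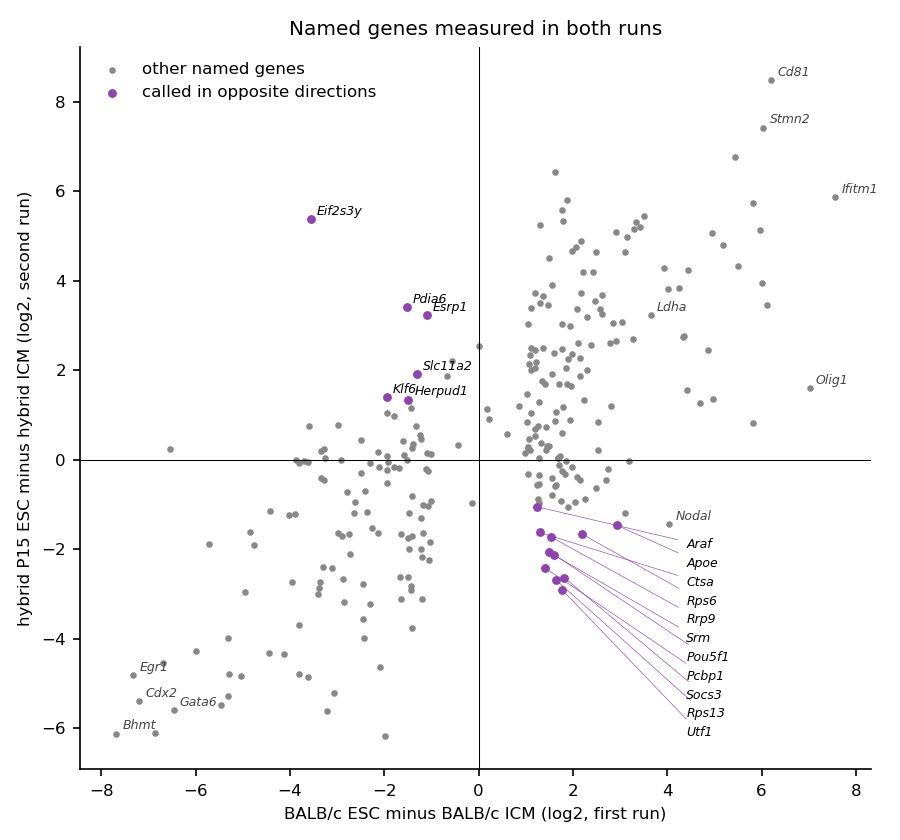
Log2 change of the 283 named genes measured in both runs, BALB/c ESC minus BALB/c ICM on the x axis and hybrid P15 ESC minus hybrid ICM on the y axis. Purple points mark the 17 genes called in opposite directions with arrays that did not overlap between the groups in both runs, such as Eif2s3y, Pou5f1 and Utf1. Without that condition on overlap, 153 were called in the same direction.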

How the data were processed

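The authors deposited raw bead intensity and a detection p value for each of 45281 probes as exported from GenomeStudio, together with a table of log2 values that the authors made with neqc of limma; no version of either is given in the sources used here. The raw intensity was processed again in R 4.3.3 with limma 3.58.1 (neqc with detection p values, offset 16, quantile normalization). The result met the deposited log2 table with an r of at least 0.9999975 on each array after a constant of about 4.13. Of the probes 34885 carry 1 gene symbol, 18 several and 10378 none, and only those with 1 were used. A probe was kept with a detection p under 0.05 on at least 2 arrays (19531 kept), and each gene took its brightest probe over the arrays. Linear models with empirical Bayes tests were fitted over 17 arrays of 6 groups (11 residual degrees of freedom, 5.83 added by the prior), without BO-3 replicate 1; the study used 2 BO-3 replicates, and which ones is not given in the sources used here. The second run (25697 probes, 10013 genes, 22 arrays of 11 groups) was processed alike and apart, with an adjusted p limit of 0.01. Of the 24 arrays of that run, 2 are BALB/c ICM by their labels, with 37.9% and 37.1% of probes detected. These 2 were left out of the fit and entered no comparison here. Lower bounds of folds used the larger of an undetected value and the lowest detected probe of the array. Tables were read with pandas 2.3.3 and figures drawn with matplotlib 3.10.9 in Python 3.11.15.

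The comparison, the 47 gene lists and the alternatives were chosen with earlier results of these data known. Genes are named by a rule: the 10 largest rises and falls whose arrays do not overlap, up to 4 rises and 4 falls of each list, a set of defining genes and those the study names. 66 more were named after their values were seen, among them Egr2, Zfp36, Pgk1 and the Armcx, Bex and Slc30 genes. Tested on simulated data for this comparison over all 11450 genes, the fit called 24 of 50 genes given a log2 change of 1, 46 at 1.5, 49 at 2 and 50 at 3, and 2 of 11250 without one. Alternatives changed the background correction, offset, scaling, filter, probe, weights, prior, pairing, source table and arrays, and their use on X-linked genes was added after seeing the data. Promoter sequences are those of RefSeq, matched by symbol for 9258 of the tested genes.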

Additional observations from a re-analysis of the deposited data

Results flagged for a closer look

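Of 283 named genes measured in both runs, 17 were called in one direction in BALB/c ESCs against BALB/c ICMs and in the other in hybrid P15 ESCs against hybrid ICMs. Only genes whose arrays did not overlap between the groups in both runs were counted. The difference between the strains was not tested, since the runs were normalized apart, and the hybrid ICM arrays detected few probes. Hybrid calls depended on the scaling. Cyclic loess kept 1089 of the 2394 hybrid falls and 1537 of the 2419 hybrid rises. Scaling by the 75th percentile kept 1404 and 1692. The hybrid values of single genes were not checked under other settings. In P15 the pluripotency genes Pou5f1 and Utf1 changed by -2.12 and -2.91, against 1.60 and 1.78 in the BALB/c ESCs, and the STAT3 target Socs3 by -2.64, against 1.81. Growth and ribosome genes did likewise, with Rps13 at -2.69, Rps6 at -1.66, Rrp9 at -1.73 and Srm at -2.07 in P15, against 1.64, 2.19, 1.54 and 1.49. Apoe, Araf, Ctsa and Pcbp1 stood at -1.47, -1.05, -1.63 and -2.41 in P15, against 2.93, 1.23, 1.29 and 1.40. Pcbp1 was not called in BALB/c without ESC replicate 2 (1.319), ESC replicate 3 (1.414) or ICM replicate 1 (1.362). Higher in P15 and lower in the BALB/c ESCs were Y-linked Eif2s3y (5.37, against -3.56), the splicing factor Esrp1 (3.24, against -1.10), Klf6 (1.41, against -1.95), the iron carrier Slc11a2 (1.92, against -1.31) and the endoplasmic reticulum genes Pdia6 (3.40, against -1.53) and Herpud1 (1.34, against -1.50). Without ESC replicate 2 or ICM replicate 1 Esrp1 was at -0.994 and -0.983 in BALB/c and not called.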

How the results depend on the processing

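Without background correction 742 genes were called higher and 651 lower in the ESCs, against 1596 and 1345, with 741 and 651 of them shared; the cause was not tested. All other alternatives kept both counts within 1.5 times. Leaving out 1 array at a time gave 1582 to 1632 higher and 1319 to 1402 lower. For P15 against the hybrid ICM (2419 higher, 2394 lower) the counts were 1533 and 1533 without background correction, 3659 lower with the 75th percentile as scaling, 1560 lower with cyclic loess, and 1358 and 1080 in a fit of only the 4 arrays; leaving out 1 array gave 1958 to 2589 higher and 2001 to 2534 lower. With the replicate number as a block the BALB/c counts were 1597 and 1346 and the hybrid counts 2421 and 2386. The deviations of ESC and ICM arrays of the same number correlated at -0.11, 0.0709 and -0.0606, and those of different number at -0.147 to 0.159. With 3 arrays in a group, such values cannot show whether the numbers pair the arrays. Of 302 named genes called, 194 were called under every setting and 280 without any 1 array. With the mean of all probes of a gene 3 reversed, Ireb2 to -0.141, Lamp2 to -0.227 and Ndufb10 to 0.568. Without background correction the rises among core pluripotency factors (5) and LIF genes (5) were 3 and 3, among histone enzymes (9), respiratory chain subunits (8) and interferon genes (8) 4, 4 and 4, and the falls among epithelial genes (11) were 6. Of 94 counts over lists, 49 moved by over 1.5 times under at least 1 setting. Without 1 array such moves touched counts of 3 or fewer: 0 falls remained among DNA methylation enzymes (without ESC replicate 1 or ICM replicate 1), DNA replication genes (ESC replicate 2), ribosome biogenesis genes (ESC replicate 2 or ICM replicate 3) and p53 targets (ICM replicate 3). Signal over background limits dim genes: in 997 genes none of the 6 arrays detected the probe.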

Other observations

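Zinc transporters of the Slc30 family were a group that no list held. Of 8 genes of the Slc30 family tested, 4 were called lower in the ESCs and 0 higher, with a median log2 change of -1.43. Slc30a1, the exporter of the plasma membrane, had 7.30, 7.32 and 7.19 on the ESC arrays, against 11.25, 11.24 and 11.20 on the ICM arrays and was 15.6-fold lower (log2 -3.96, SE 0.19, adjusted p = 2.25e-11). Slc30a2, Slc30a3 and Slc30a4, which fill vesicles, were 12.7-fold lower, 9.72-fold lower and 4.91-fold lower. Of 10 importers of the Slc39 family, 2 were called higher and 1 lower. Both fructose bisphosphatases, which run the committed step of glycolysis backward, were lower: Fbp2 had 8.45, 7.89 and 7.94 on the ESC arrays, against 13.40, 13.28 and 13.46 on the ICM arrays and was 39.0-fold lower (log2 -5.29, SE 0.20, adjusted p = 1.23e-12), and Fbp1 was 9.71-fold lower (log2 -3.28, SE 0.20, adjusted p = 2.97e-10, above background in 1 of 3 ESC arrays). Gli2 and Gli3, the factors at the end of the Hedgehog route, were both higher, at at least 8.64-fold higher and 17.9-fold higher. Gli2 had 8.21, 7.88 and 7.87 on the ESC arrays, against 4.63, 4.43 and 4.26 on the ICM arrays, and Gli3 had 9.00, 9.11 and 9.00 on the ESC arrays, against 4.31, 5.28 and 5.03 on the ICM arrays. These genes were picked after their values were seen.

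Of 3770 genes with several probes, 39 have probes called in opposite directions, 5 of them named genes measured in both runs (Araf, Ireb2, Jak1, Lamp2 and Ndufb10). On autosomes, the share called higher was highest on chromosome 3 at 19.4%.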
